A study of Mus musculus with 6 samples.

Results

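The genes of de novo lipogenesis, which turns surplus sugar into fatty acids, were followed in the liver of mice with an altered peroxiredoxin 1. The set was chosen by name, with earlier results of these data known, and holds 10 of the 28601 genes in the deposited table. It comprises the transcription factor genes Srebf1 and Mlxipl, the enzyme genes Acly, Acaca, Acacb, Fasn, Scd1, Elovl6 and Me1, and Thrsp, whose product acts alongside the enzymes. All 10 were expressed well enough to be tested. Liver RNA came from 6 male mice, 3 wild type (WT) and 3 with the PRDX1 Cys52Ser substitution, in which the peroxide-reducing cysteine of peroxiredoxin 1 is replaced by serine. All 6 were fed CDAHFD, a high-fat diet lacking choline that produces steatohepatitis and fibrosis, from 8 weeks of age and for 8 weeks by their titles. Their treatment entries differ from this: 8, 9 and 10 weeks for the WT mice, and 11, 12 and 13 weeks for the Cys52Ser mice. Read literally, these entries mean that diet duration and genotype cannot be told apart. The labels do not say how the substitution was made, and no group on a control diet is part of the comparison.

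In hepatocytes, citrate leaves the mitochondrion and ATP citrate lyase (Acly) splits it to acetyl-CoA. Acetyl-CoA carboxylase makes malonyl-CoA from it, and fatty acid synthase (Fasn) builds palmitate, which Elovl6 lengthens and stearoyl-CoA desaturase (Scd1) converts to monounsaturated fatty acids. Malic enzyme (Me1) supplies NADPH. Insulin and the liver X receptor raise SREBP-1c, a product of Srebf1, while sugar metabolites activate ChREBP, the product of Mlxipl; both factors switch on the enzymes. Polyunsaturated fatty acids and fasting lower the pathway, and levels follow feeding closely.

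Srebf1 was the only one of the 10 genes to pass edgeR's test with TMM scaling. It rose 2.13-fold in Cys52Ser liver, close to the threshold (edgeR adjusted p = 0.0487), and the call was lost in 13 of 20 alternative fits. A call as higher was made for 2.52% of all tested genes. None of the 10 genes was called lower by this test, against 2.46% of all tested genes. With libraries scaled to hepatocyte markers instead, Srebf1 was not called and 2 of the 10 were called lower. Thrsp, Acacb and Acly were also higher in all 3 Cys52Ser mice than in any WT mouse, with fold changes of 5.22, 2.53 and 1.43, but did not pass the test. Of all tested genes, 14.4% were higher without overlap in this way, and 29.7% were separate in either direction. The remaining enzyme genes, Fasn, Acaca, Scd1, Elovl6 and Me1, overlapped between the genotypes on the scaled counts used for the test, as did Mlxipl. Overlap does not show equal levels: the 95% confidence interval of the Fasn log2 fold change ran from -0.94 to 1.71. Acaca and Me1 were lower without overlap on the deposited FPKM. On that scale the median log2 fold change of all tested genes was -0.22, with 0.5 added to FPKM. The share of all genes separate on FPKM was not computed.

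The start regions of 4 genes are shown because they carry the largest differences in the set (Thrsp, Acacb and Srebf1) or its central enzyme (Fasn). Each sequence runs from 250 bases before to 50 bases after an annotated RefSeq start on GRCm38.p6. The Srebf1 region is the most downstream of its 3 annotated starts. The Acacb region, the only one found for that gene, lies inside the gene, downstream of its first base at 114146535. Capitals mark the CCAAT box, the site of the factor NF-Y, on either strand (ATTGG on the other).
Srebf1 (chr11:60210422-60210721, minus strand): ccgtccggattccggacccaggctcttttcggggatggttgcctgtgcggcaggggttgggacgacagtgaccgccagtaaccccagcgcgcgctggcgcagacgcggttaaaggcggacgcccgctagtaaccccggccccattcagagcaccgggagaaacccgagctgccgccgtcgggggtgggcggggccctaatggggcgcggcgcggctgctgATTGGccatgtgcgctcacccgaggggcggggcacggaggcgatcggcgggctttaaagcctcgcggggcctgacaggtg
Thrsp (chr7:97417501-97417800, minus strand): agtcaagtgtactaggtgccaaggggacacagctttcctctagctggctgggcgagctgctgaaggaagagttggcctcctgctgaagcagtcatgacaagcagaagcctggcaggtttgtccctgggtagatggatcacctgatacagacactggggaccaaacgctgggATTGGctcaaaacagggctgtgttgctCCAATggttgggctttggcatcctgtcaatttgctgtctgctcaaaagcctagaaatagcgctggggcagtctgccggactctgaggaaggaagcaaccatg
Acacb (chr5:114165268-114165567, plus strand): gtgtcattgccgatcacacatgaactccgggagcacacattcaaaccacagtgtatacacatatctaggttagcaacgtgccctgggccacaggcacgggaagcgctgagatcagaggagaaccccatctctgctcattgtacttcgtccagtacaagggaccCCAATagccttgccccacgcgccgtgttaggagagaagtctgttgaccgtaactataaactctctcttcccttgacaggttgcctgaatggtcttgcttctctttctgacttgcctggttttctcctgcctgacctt
Fasn (chr11:120824498-120824797, minus strand): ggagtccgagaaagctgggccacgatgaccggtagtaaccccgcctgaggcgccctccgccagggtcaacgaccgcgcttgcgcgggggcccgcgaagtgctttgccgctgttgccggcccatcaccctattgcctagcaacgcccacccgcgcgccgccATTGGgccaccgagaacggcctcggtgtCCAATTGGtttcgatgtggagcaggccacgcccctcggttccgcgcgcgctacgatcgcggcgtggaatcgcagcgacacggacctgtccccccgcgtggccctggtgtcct
RefSeq windows were found for 9 of the 10 genes, all but Scd1, 13 windows in total. The single windows of Acaca and Acacb lie inside these genes, downstream of their first bases at 84129672 and 114146535. The regions at those first bases were not searched. CCAAT or its complement occurred in 8 of the 13 windows and in a window of 7 of these 9 genes, among them Fasn, whose copies include a pair that share bases, and Thrsp, with a copy in each orientation. Over all 32851 windows of this length, 37.4% held it. The sterol regulatory element searched, TCACNCCAC on both strands, was found only for Mlxipl, and in 1.24% of all windows. The E-box CACGTG was likewise found only for Mlxipl, against 7.15% of all windows. A direct-repeat element of the liver X receptor was in no window of the set and in 0.0152% of all windows. A strict form of the carbohydrate response element was in none of the 32851. These are letter matches in short windows, and an element outside the window or with other letters would be missed.

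Total counts per library lay between 53318196 and 73900923. Levels below are TMM-scaled CPM, counts relative to library size, where TMM is a scaling between libraries that assumes most genes are unchanged, unless FPKM, a value per transcript length, is named. Albumin took 3.6% to 5.55% of counts in WT and 8.08% to 8.49% in Cys52Ser, and the TMM factors were 1.05 to 1.21 in WT and 0.814 to 0.963 in Cys52Ser. Across 18648 tested genes, 928 (4.98%) changed at an adjusted p under 0.05 in edgeR's quasi-likelihood test, 469 (2.52%) higher and 459 (2.46%) lower. The higher genes made up 50.5% of the calls, but 9.71% with library totals alone and 1.17% with hepatocyte marker scaling. Prdx1 itself was at 864, 920 and 978 CPM in WT replicates 1, 2 and 3 and at 859, 661 and 819 CPM in the Cys52Ser replicates, which does not check a substitution of a single residue (log2 fold change -0.24 ± 0.15, SE, edgeR adjusted p = 0.421). Its groups did not overlap, and it was called lower in 7 of 20 alternatives, at -0.59 with library totals alone and -1.04 with hepatocyte marker scaling (edgeR adjusted p = 0.0188 and 0.00638).

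Within the set, 1 of 10 genes was called higher against 2.52% of all tested genes, and 0 of 10 lower against 2.46%. None was lower at an unadjusted p under 0.05, against 11.1% of all tested genes. DESeq2 called none of the 10 lower either, where it called 1255 of 17166 genes lower. Without regard to direction, the groups were separate for 29.7% of all tested genes. The groups did not overlap, with Cys52Ser higher, for 4 of 10 genes, against 14.4% of all tested genes. The same 4, Srebf1, Acacb, Acly and Thrsp, had an unadjusted p under 0.05, against 11.3% of all tested genes called higher that way. The median log2 fold change was 0.30 over the set and 0.00 over all tested genes, and 8 of the 10 values were positive, against 4 with library totals alone and 3 with hepatocyte marker scaling. DESeq2 called these same 4 genes higher, where it called 8.63% of 17166 genes higher.

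**Figure D1:**
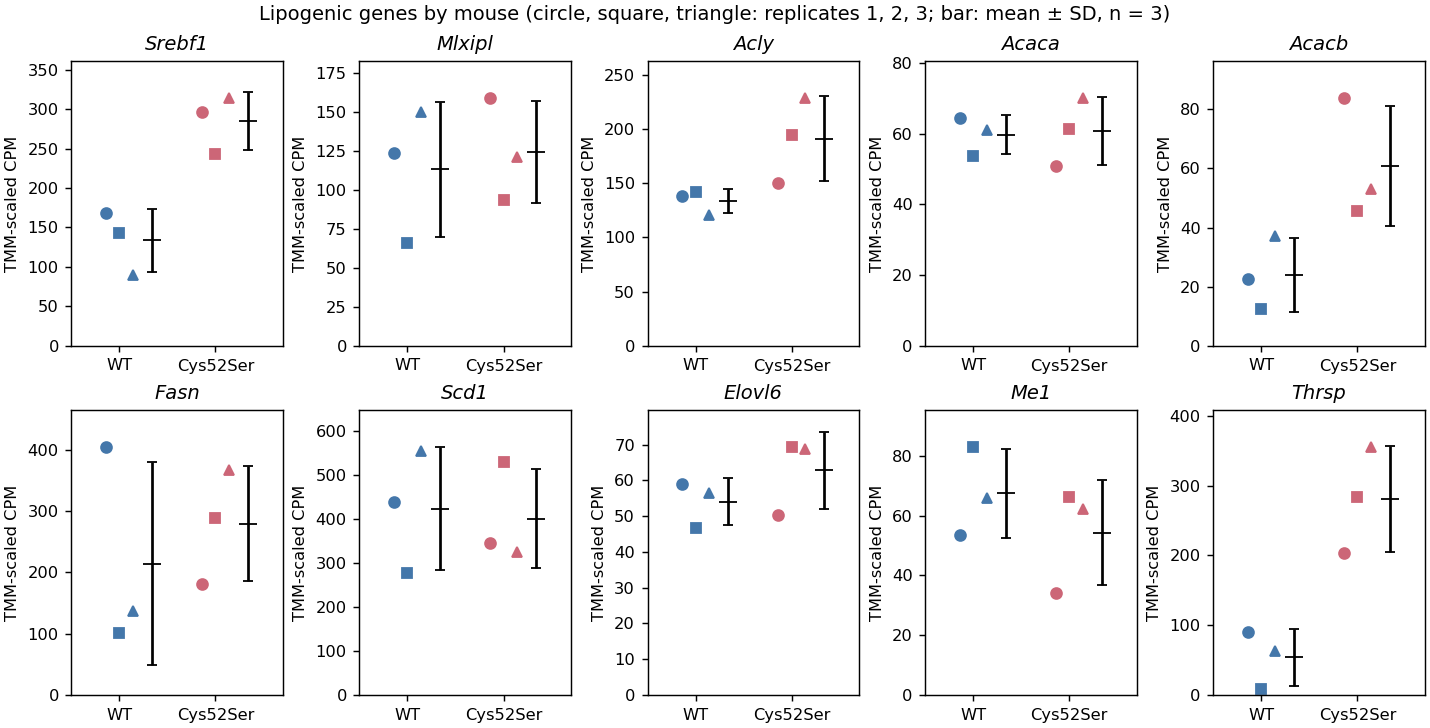
TMM-scaled CPM of the 10 lipogenic genes in each mouse (blue WT, red Cys52Ser; circle, square and triangle are replicates 1, 2 and 3, and the bar is the mean ± SD of 3 mice). Srebf1, Acly, Acacb and Thrsp are separate between the groups, while WT replicate 1 holds the highest Fasn value, 404 CPM.

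Of the 2 regulators, Srebf1 encodes SREBP-1, the sterol regulatory element-binding protein that drives fatty acid synthesis genes (ENSMUSG00000020538, GRCm38 chromosome 11, 60199089 to 60222581, minus strand). It measured 169, 142 and 89.9 CPM in WT and 296, 243 and 314 CPM in Cys52Ser. Each Cys52Ser mouse was well above each WT mouse. The means were 134 ± 40.2 and 284 ± 36.7 CPM (SD, n = 3 each), a log2 fold change of 1.09 with a 95% confidence interval from 0.53 to 1.65 (edgeR adjusted p = 0.0487). The call is close to the threshold and was lost in 13 of 20 alternatives. Without Cys52Ser replicates 1, 2 or 3 the adjusted p was 0.141, 0.0653 and 0.147, without WT replicates 1 and 2 it was 0.0594 and 0.134, and the log2 fold change lay between 0.81 and 1.24 in all such fits. The table gives a value per gene, so the SREBP-1a and SREBP-1c transcripts, which begin at different starts, cannot be told apart. The 3' end of Srebf1 also overlaps Rai1 on the opposite strand, whose level was 0.98 to 2.32 FPKM.

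Mlxipl encodes ChREBP, the carbohydrate response element-binding protein (ENSMUSG00000005373, chromosome 5, 135089890 to 135138382, plus strand). Its values were 124, 65.8 and 149.9 CPM in WT and 159, 93.5 and 121 CPM in Cys52Ser. The groups overlapped in part, and the log2 fold change of 0.14 had an interval from -0.63 to 0.90 (edgeR adjusted p = 0.852).

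Hepatocyte markers were also higher in Cys52Ser liver. Over WT replicates 1, 2 and 3 their summed FPKM, which includes albumin at 13685, 19984 and 20817 FPKM, rose and Srebf1 fell. All 11 hepatocyte markers in the table had positive log2 fold changes, with a median of 0.72, 10 of them without overlap between the groups, and 2 passed the test, Hnf4a at 0.92 and Cps1 at 1.40 (edgeR adjusted p = 0.0355 and 0.0302). Their summed level was 26199.7 to 36122 FPKM in WT and 47509.6 to 50723.5 FPKM in Cys52Ser. Of 8 stellate and fibroblast markers 4 fell, and of 8 macrophage markers 3 fell and 1 rose. Of 6 sinusoidal endothelial markers 2 rose, and of 6 cholangiocyte markers 1 fell, with list medians of 0.40 and -1.53. In bulk liver, fewer cells of a type and less RNA per cell cannot be told apart. When libraries were scaled to the hepatocyte markers instead of by TMM, the median of all genes moved to -0.80, the log2 fold change of Srebf1 was 0.23 (edgeR adjusted p = 0.548), and Srebf1 was no longer called. The ratio of Srebf1 to albumin FPKM within a library was 0.00236, 0.00127 and 0.000702 in WT and 0.00135, 0.00118 and 0.00125 in Cys52Ser, inside the WT range. The part of cell composition in the Srebf1 difference was not tested.

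Among the genes that make malonyl-CoA, Acly encodes ATP citrate lyase (ENSMUSG00000020917, chromosome 11, 100476353 to 100528000, minus strand). It measured 139, 142 and 121 CPM in WT and 150.1, 195 and 228 CPM in Cys52Ser. The lowest Cys52Ser mouse stood just above the highest WT mouse. The log2 fold change was 0.51 ± 0.17 (SE, edgeR adjusted p = 0.13). On the FPKM scale the groups overlapped, and with hepatocyte marker scaling the log2 fold change was -0.29.

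The 2 carboxylases had different patterns. Acaca encodes acetyl-CoA carboxylase 1, the cytosolic form that feeds fatty acid synthesis (ENSMUSG00000020532, chromosome 11, 84129672 to 84401645, plus strand). It stayed within 50.9 to 70.0 CPM in all 6 mice. The WT mean was 59.6 ± 5.52 CPM and the Cys52Ser mean 60.7 ± 9.54 CPM (SD, n = 3 each), with a log2 fold change of 0.03 and an interval from -0.30 to 0.35 (edgeR adjusted p = 0.944). This was the narrowest range of the 10 genes, 1.37-fold from the lowest to the highest mouse. On FPKM, its Cys52Ser values (2.31, 3.04 and 2.99) were all below its WT values (4.05, 3.16 and 3.28). Acacb encodes acetyl-CoA carboxylase 2, the form at the mitochondrial surface whose malonyl-CoA restrains fatty acid import for oxidation (ENSMUSG00000042010, chromosome 5, 114146535 to 114250761, plus strand). Acacb was 22.4, 12.5 and 37.2 CPM in WT and 83.7, 45.6 and 53.1 CPM in Cys52Ser. All Cys52Ser mice were above all WT mice, but the spread was wide on both sides, and the log2 fold change of 1.34 had an interval from 0.33 to 2.35 (edgeR adjusted p = 0.126). The ratio of Acacb to Acaca, which does not depend on how libraries are scaled to each other, was 0.618, 0.412 and 1.08 in WT and 2.91, 1.32 and 1.34 in Cys52Ser. On FPKM, Acaca exceeded Acacb in 2 of the WT mice and Acacb exceeded Acaca in every Cys52Ser mouse.

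Fasn encodes fatty acid synthase, which assembles palmitate (ENSMUSG00000025153, chromosome 11, 120805846 to 120824547, minus strand). Its values were 404, 100.4 and 137 CPM in WT and 181, 289 and 367 CPM in Cys52Ser. WT replicate 1 was the highest of the 6 mice and the other 2 WT mice were the lowest. The means were 214 ± 166 and 279 ± 93.5 CPM (SD, n = 3 each), and the log2 fold change of 0.38 had an interval from -0.94 to 1.71 (edgeR adjusted p = 0.746). Without WT replicate 1 the log2 fold change was 1.18 (edgeR adjusted p = 0.129), and without WT replicate 2 it was -0.01 (adjusted p = 0.993). The SD of log2 CPM among WT mice, 1.05, was larger than that of 95.0% of tested genes.

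Thrsp encodes Spot 14, a small protein that follows thyroid hormone and sugar intake and acts with the lipogenic enzymes (ENSMUSG00000035686, chromosome 7, 97412938 to 97417730, minus strand). It had the largest fold change of the set. Thrsp stood at 90.0, 8.94 and 62.5 CPM in WT and at 204, 284 and 355 CPM in Cys52Ser. WT replicate 2 was by far the lowest, and the lowest Cys52Ser mouse still exceeded the highest WT mouse by more than the gap between the upper WT mice. The means were 53.8 ± 41.2 and 281 ± 75.4 CPM (SD, n = 3 each), with a log2 fold change of 2.38 and an interval from 0.44 to 4.33 (edgeR adjusted p = 0.148). Without WT replicate 2 it was 1.82 (edgeR adjusted p = 0.061). The WT SD of log2 CPM, 1.79, exceeded that of 98.6% of tested genes, and DESeq2 gave an adjusted p of 0.0372.

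Thrsp and Fasn did not keep step. The ratio of Thrsp to Fasn FPKM was 1.12, 0.445 and 2.28 in WT and 5.65, 4.91 and 4.83 in Cys52Ser. The Cys52Ser ratios were close together and all above the WT ratios. Of 7 ratios computed between lipogenic genes, 4 were separate between the groups. Each of these 4 holds a gene that was separate by itself on FPKM (Acacb, Thrsp, Me1 or Acaca). The share of separate ratios over other gene pairs was not computed. The other 3 overlapped: Scd1 to Fasn was 1.99 to 9.07 over the 6 mice, Srebf1 to Mlxipl 0.589 to 2.56 and Srebf1 to Fasn 0.813 to 3.18. Thrsp is also a gene of adipocytes, and the adipocyte markers Adipoq, Plin1 and Lep had at most 37 counts in any library. The summed level of the 8 adipocyte markers in the table was 64.7 to 98.0 FPKM in WT and 48.9 to 54.5 FPKM in Cys52Ser, most of it from Cidec and Pnpla2. Of the 5 that could be tested none passed in edgeR or DESeq2, with 2 higher (Cfd and Lipe) and 1 lower (Cidec) at an unadjusted p under 0.05 and a median log2 fold change of 0.05. Plin1, from 0 to 4 counts in WT, had 7 to 37 counts in Cys52Ser. The part of adipocytes in the Thrsp difference was not tested.

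**Figure D2:**
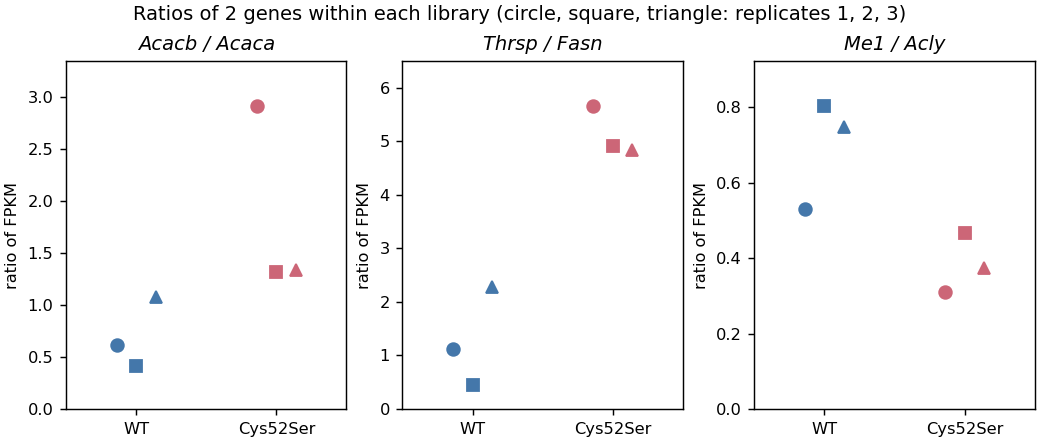
Ratios of FPKM between 2 genes in each library (blue WT, red Cys52Ser; circle, square and triangle are replicates 1, 2 and 3), which do not change with the scaling between libraries. Acacb over Acaca and Thrsp over Fasn are higher in every Cys52Ser library, and Me1 over Acly is lower, at 0.311 to 0.467 against 0.529 to 0.802.

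The genes that shape and supply the fatty acid chain overlapped between the genotypes on CPM. Scd1, the desaturase that makes oleate and palmitoleate (ENSMUSG00000037071, chromosome 19, 44394455 to 44407709, minus strand), measured 439, 277 and 556 CPM in WT and 346, 530.4 and 327 CPM in Cys52Ser. Both groups spanned nearly the same range, and the log2 fold change of -0.08 had an interval from -0.77 to 0.61 (edgeR adjusted p = 0.911). Elovl6, the elongase that turns palmitate into stearate (ENSMUSG00000041220, chromosome 3, 129532355 to 129634971, plus strand), was 59.0, 46.7 and 56.5 CPM in WT and 50.4, 69.2 and 68.8 CPM in Cys52Ser. Its log2 fold change was 0.22 with an interval from -0.15 to 0.58 (edgeR adjusted p = 0.481). Elovl6 and Acaca were the pair of the set with the most similar course over the 6 mice, with a root mean square distance of 0.119 between their centred log2 CPM. Their FPKM ratio, Elovl6 to Acaca, was 2.44, 2.31 and 2.46 in WT and 2.63, 3.00 and 2.61 in Cys52Ser, without overlap.

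Me1, the cytosolic malic enzyme (ENSMUSG00000032418, chromosome 9, 86581371 to 86695953, minus strand), had the most negative value of the set. It was 53.4, 82.8 and 65.9 CPM in WT and 34.1, 66.3 and 62.2 CPM in Cys52Ser, overlapping between the groups (log2 fold change -0.31 ± 0.27, SE, edgeR adjusted p = 0.566). On FPKM, its Cys52Ser values (6.85, 14.6 and 11.8) were all below its WT values (14.9, 21.7 and 15.7). Relative to Acly in the same library it was lower in every Cys52Ser mouse, with FPKM ratios of 0.529, 0.802 and 0.748 in WT and 0.311, 0.467 and 0.374 in Cys52Ser. With libraries scaled to the hepatocyte markers, Me1 and Acaca were called lower (log2 fold change -1.08 and -0.78, edgeR adjusted p = 0.0222 and 0.0199), in a fit that called 8796 of 18648 genes lower.

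**Figure D3:**
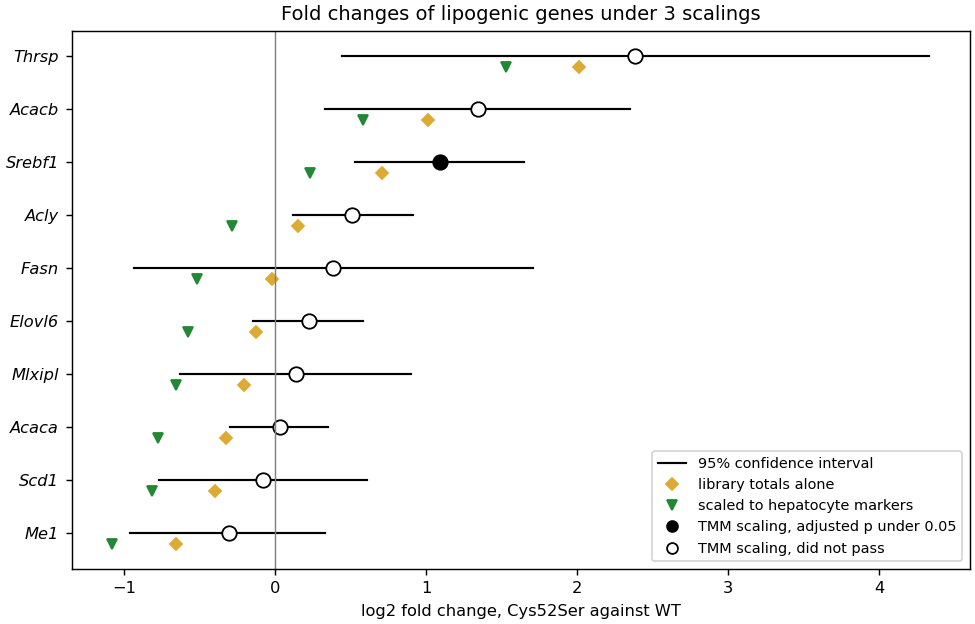
Log2 fold changes of the 10 genes, Cys52Ser against WT, by TMM scaling with 95% confidence intervals (circles, filled where the adjusted p is under 0.05), by library totals alone (diamonds) and scaled to hepatocyte markers (triangles). Only Srebf1 is filled, and Thrsp, Acacb and Srebf1 stay above 0 under all 3 scalings, Srebf1 at 0.23 with hepatocyte markers.

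Levels per transcript length gave a different order in the 2 groups. In WT, Scd1 led at 86.0 ± 25.3 FPKM, followed by Acly at 25.4 ± 3.88, Thrsp at 24.8 ± 20.1, Srebf1 at 24.1 ± 8.88, Mlxipl at 20.3 ± 7.24, Fasn at 20.1 ± 17.0 and Me1 at 17.4 ± 3.68 FPKM (SD, n = 3). The means of Thrsp, Srebf1, Mlxipl and Fasn differed by less than the SD of any of the 4, while Me1 was below Acly in every WT mouse. Elovl6 at 8.41 ± 1.32, Acaca at 3.49 ± 0.485 and Acacb at 2.45 ± 1.12 FPKM were lowest (SD, n = 3). In Cys52Ser, Thrsp led at 100.2 ± 24.7 FPKM, above Scd1 at 65.2 ± 23.5 FPKM and Srebf1 at 39.3 ± 2.34 FPKM (SD, n = 3). Acly at 28.3 ± 5.47, Fasn at 19.9 ± 6.25, Mlxipl at 17.5 ± 4.15, Me1 at 11.1 ± 3.94 and Elovl6 at 7.67 ± 1.54 FPKM followed (SD, n = 3). Thrsp was above Scd1 in all 3 Cys52Ser mice, and the means of Fasn and Mlxipl differed by less than the SD of either. Acacb at 4.92 ± 1.56 FPKM stood above Acaca at 2.78 ± 0.411 FPKM (SD, n = 3). The summed FPKM of the 10 genes was 297, 168 and 233 in WT and 247, 338 and 307 in Cys52Ser, overlapping.

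WT replicate 2 held the lowest value of 6 of the 10 genes (Mlxipl, Acacb, Fasn, Scd1, Elovl6 and Thrsp) and the highest value of Me1. Genes with the most similar course were taken among 9337 genes at a mean of 10 CPM or more. For Fasn they were Inhba, Egr1, Adamts7, Col27a1 and Ier2, at distances of 0.245 to 0.367. Egr1, an immediate early gene, stood at 154, 40.04 and 39.8 CPM in WT and 45.3, 115 and 127 CPM in Cys52Ser, with the same single high WT mouse as Fasn. For Scd1 they were Gbp4, Sp140, Lrch3, Ifi203 and Tap1, at 0.173 to 0.215, and for Srebf1 Ctif, D16Ertd472e, Vps37b, Zcchc24 and Cldn14, at 0.117 to 0.191.

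The genes around the pathway were read from 6 lists with 107 tested genes, chosen with earlier results of these data known. Of these genes, 5 (4.67%) rose and 3 (2.8%) fell, against 2.52% and 2.46% of all tested genes. To set beside the list counts below, 11.3% of all tested genes were higher and 11.1% lower at an unadjusted p under 0.05. DESeq2 called 8.63% of 17166 genes higher and 1255 genes lower. Of 20 genes of SREBP processing and lipogenic transcription, 2 rose and 1 fell, with a median log2 fold change of 0.18. Ppara, the fasting and fatty acid receptor, rose 2.78-fold, from 25.2, 17.8 and 31.3 CPM to 77.3, 60.6 and 68.7 CPM (edgeR adjusted p = 0.0207). Mlx, the partner of ChREBP, rose 1.37-fold (edgeR adjusted p = 0.0469), and Nfya, a subunit of the CCAAT-binding NF-Y, was 1.46-fold lower, at 28.9, 27.0 and 25.2 CPM in WT and 19.5, 19.0 and 17.2 CPM in Cys52Ser (adjusted p = 0.0401). The genes of the other NF-Y subunits, Nfyb and Nfyc, had log2 fold changes of 0.02 and 0.18 and did not pass (edgeR adjusted p = 0.954 and 0.455). The call of Mlx was lost in 16 and that of Nfya in 8 of 20 alternatives. That of Ppara was lost in 4, without WT replicate 1 or 2 or Cys52Ser replicate 1 or 3 (adjusted p = 0.0594, 0.0541, 0.0766 and 0.0775). Srebf2, Scap, Insig1 and the liver X receptor gene Nr1h3 had log2 fold changes of 0.53, 0.40, 0.57 and 0.44 and did not pass (edgeR adjusted p from 0.0821 to 0.245). Pparg, Nr1h2 and Mbtps2 of the same list were at -0.82, -0.22 and -0.18 and did not pass either (adjusted p = 0.143, 0.321 and 0.417). In this list 6 genes were higher and 2 lower at an unadjusted p under 0.05, and as many by DESeq2.

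Of 12 genes of sugar entry and glycolysis, 1 rose and none fell, with a median of 0.28 and no gene lower at an unadjusted p under 0.05 or by DESeq2. Pfkfb1, which sets the level of the glycolytic activator fructose 2,6-bisphosphate, rose 2.39-fold (edgeR adjusted p = 0.0434), a call lost in 6 of 20 alternatives. Its values were 21.2, 20.5 and 36.2 CPM in WT and 69.1, 49.2 and 67.8 CPM in Cys52Ser, without overlap. The glycolytic genes Pgk1 and Pfkl had log2 fold changes of 0.54 and 0.27 and missed the threshold (adjusted p = 0.0773 and 0.214). Pklr, the liver pyruvate kinase and a standard ChREBP target, averaged 115 ± 44.1 CPM in WT mice and 125 ± 20.7 CPM in Cys52Ser mice (SD, n = 3), with an edgeR adjusted p of 0.853.

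Of 16 genes that supply citrate, acetyl-CoA and NADPH, Dlat of the pyruvate dehydrogenase complex rose 1.44-fold (edgeR adjusted p = 0.0487), a call lost in 16 of 20 alternatives. Pcx and Idh1 had log2 fold changes of 0.75 and 0.65 and missed the threshold (adjusted p = 0.061 and 0.0707). Over the 16 genes the median was 0.43, with 8 higher and 1 lower at an unadjusted p under 0.05, and 7 and 1 by DESeq2. The gene lower at an unadjusted p was Pgd, at -0.44 without overlap between the groups (edgeR adjusted p = 0.0979). Of 21 other targets of SREBP-1c and ChREBP, Fads1, a desaturase of polyunsaturated fatty acids, rose 1.89-fold, with means of 419 ± 84.8 CPM for WT mice and 793 ± 118 CPM for Cys52Ser mice (SD, n = 3) and an edgeR adjusted p of 0.0467. Its call was lost in 10 of 20 alternatives. Fads2, which acts in the same pathway, and the triglyceride enzyme gene Dgat2 were at log2 fold changes of 1.23 and 0.81 and did not pass (adjusted p = 0.0552 and 0.0517). Fgf21, Lpl and Txnip were at -1.91, -0.88 and -0.57, each without overlap between the groups, and did not pass (adjusted p = 0.0651, 0.0929 and 0.143). In this list 10 genes were higher and 3 lower at an unadjusted p under 0.05, and 8 and 3 by DESeq2. None of 15 tested paralogs and accessory genes passed in edgeR, 3 were higher at an unadjusted p under 0.05 and 3 by DESeq2, and the smallest adjusted p there, 0.0731, was that of Acaa2; with hepatocyte scaling, Mlycd in that list was called lower (-0.44, adjusted p = 0.038).

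Of 24 insulin and energy signalling genes, none rose and 2 fell; 3 were higher at an unadjusted p under 0.05 and 2 by DESeq2. Trib3, a stress-induced inhibitor of insulin signalling, was 15.2, 36.7 and 43.5 CPM in WT and 7.82, 9.52 and 7.33 CPM in Cys52Ser. All Cys52Ser mice were below the lowest WT mouse, 3.87-fold lower on average (edgeR adjusted p = 0.0403). Prkab2, a regulatory subunit of the energy sensor AMPK, was 2.06-fold lower, at 12.8, 12.9 and 11.5 CPM in WT and 4.96, 7.11 and 6.03 CPM in Cys52Ser (edgeR adjusted p = 0.0267). The Trib3 call was lost in 8 of 20 alternatives. The Prkab2 call was lost in 4, without WT replicate 1 or 2 or Cys52Ser replicate 1 or 3 (adjusted p = 0.0634, 0.0865, 0.0861 and 0.101). Foxo1 had a log2 fold change of 0.81 and did not pass (adjusted p = 0.0552).

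**Figure D4:**
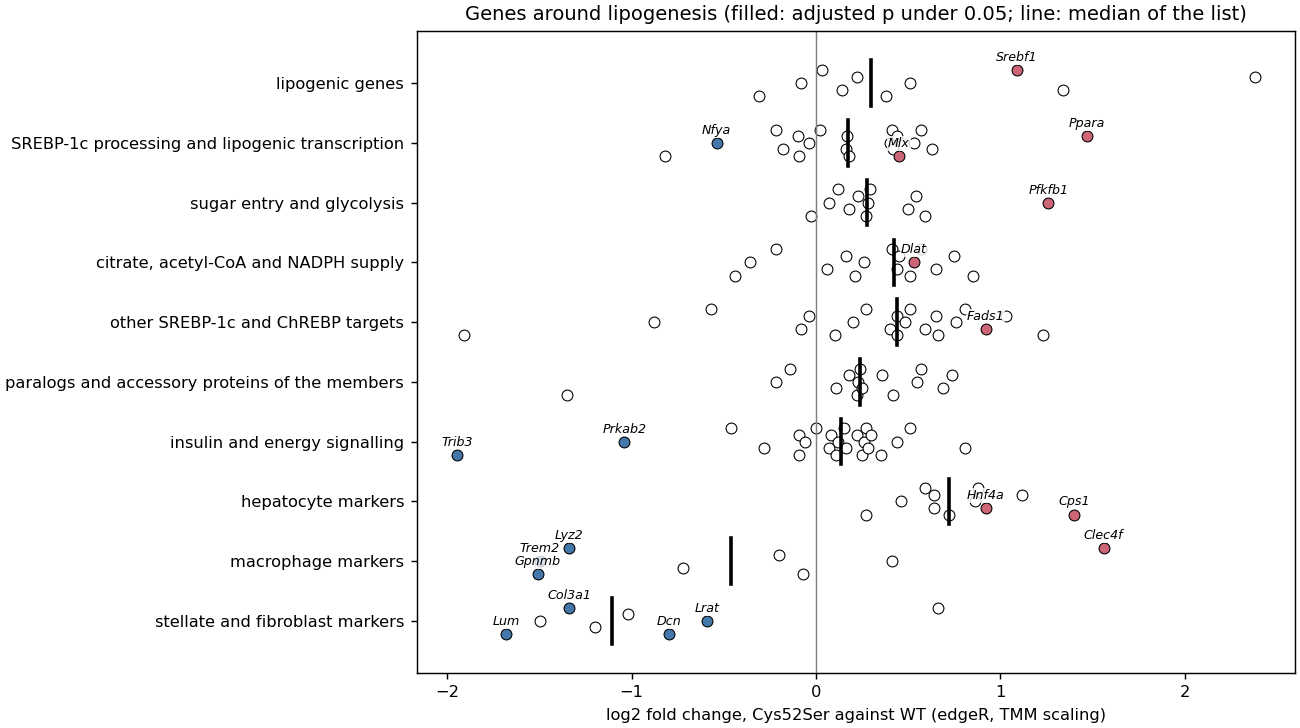
Log2 fold changes, Cys52Ser against WT, of the 10 lipogenic genes, the 6 lists around them and 3 lists of cell type markers; each circle is a gene, filled where the edgeR adjusted p is under 0.05, and a line marks the list's median. The lipogenic median is 0.30 and that of the hepatocyte markers is 0.72.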

How the data were processed

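Liver mRNA of 6 mice was sequenced, 3 of each genotype, with the groups read from the titles. Per the labels' protocols, mRNA was selected with oligo(dT) beads and made into strand-marked libraries with molecular identifiers. Without giving their roles, the submitters' processing notes list StringTie 1.3.4d, HISAT2 2.0.4, cutadapt 1.9, UMI-tools, edgeR and DESeq2, with mm9 as the build. GENCODE M21, on GRCm38, held 28524 of the 28601 identifiers, 24753 of them (86.8%) at identical coordinates, so GRCm38 positions are printed. Use of strand in counting was not given in the sources used here. In the deposited table, per the file headers, each mouse has for each gene an estimated count and, beside it, FPKM.

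The estimated counts are whole numbers and were tested as deposited with edgeR 4.0.16 (R 4.3.3): genes kept by filterByExpr (minimum count 10), TMM scaling, robust quasi-likelihood fits with a term for genotype alone, Benjamini-Hochberg over 18648 genes, threshold 0.05. Standard errors are the log2 fold change divided by the square root of F. Counts vary with sampling, and the common biological coefficient of variation was 0.358. Every 2 libraries differed by more than sampling noise (chi-square per degree of freedom 86.9 or more). Named genes were the 10 members, Prdx1, and the called genes and 3 smallest p-values of each pathway list. The 5 nearest genes of Fasn, Scd1 and Srebf1 were also named. Srebf2, Scap, Insig1, Nr1h3, Pparg, Nr1h2, Mbtps2, Nfyb, Nfyc, Fgf21, Lpl, Txnip, Pgd, Pklr, Rai1, albumin and the markers were added after their values were seen. Results for 2 genes of the sugar entry list are not reported here, and these genes are in no count of the lists. Members and lists were chosen with earlier results of these data known. Alternatives were other scalings and filters, DESeq2 1.42.0, limma 3.58.1 on log2(FPKM + 0.5) and variants of it, a replicate block and leaving out each library.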

Additional observations from a re-analysis of the deposited data

How the results depend on the processing

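Of the 29 genes tracked over 20 alternatives, 14 kept their direction in all, Srebf1, Acacb and Thrsp among them. The number of lipogenic genes called higher, 1 by TMM, was 4 with DESeq2 and 0 with library totals alone, hepatocyte scaling, limma on log2(FPKM + 0.5), + 0.1 or + 1, limma without a filter or on quantile-normalized FPKM, and the replicate block; it was 0 to 1 with a library left out. The number called lower was 2 with hepatocyte scaling. The count of all genes called, 928, was 3017 with library totals alone (9.71% of them higher instead of 50.5%), 8900 with hepatocyte scaling (1.17% higher), 2737 with DESeq2, 2967, 2947 and 2842 in limma at pseudocounts of 0.5, 0.1 and 1 (11.5% higher at 0.5), and 28 to 790 with a library left out. The 8 pathway calls were 15 with library totals alone and in limma at each pseudocount, 48 with hepatocyte scaling, 36 with DESeq2, 4 in limma on quantile-normalized or TMM-rescaled FPKM, and 0 to 7 with a library left out. Over all genes the median log2 fold change was -0.35 with library totals alone, -0.80 with hepatocyte scaling and -0.17 to -0.31 in limma on filtered FPKM as deposited.

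Reversed log2 fold changes were -0.21 (Mlxipl), -0.33 (Acaca), -0.02 (Fasn), -0.13 (Elovl6), -0.08 (Pfkl) and -0.00 (Mlycd) with library totals alone. With hepatocyte scaling they were -0.66 (Mlxipl), -0.29 (Acly), -0.78 (Acaca), -0.52 (Fasn), -0.58 (Elovl6), -0.35 (Mlx), -0.24 (Pgk1), -0.52 (Pfkl), -0.05 (Pcx), -0.27 (Dlat), -0.13 (Idh1), -0.44 (Mlycd), -0.10 (Acaa2) and -0.03 (Brca1). In limma at pseudocounts of 0.5 (also without a filter), 0.1 and 1 they were -0.16 in each for Mlxipl, -0.28, -0.32 and -0.25 for Acaca, -0.06, -0.07 and -0.06 for Pfkl, and -0.13, -0.14 and -0.12 for Elovl6. Acaca was -0.01 with upper quartile factors. With a library left out, Mlxipl lay between -0.19 and 0.33, Acaca between -0.10 and 0.14, Fasn between -0.01 and 1.18 and Scd1 between -0.35 and 0.11. The median over all genes was also below 0 with library totals alone, with hepatocyte scaling and in limma on FPKM as deposited. The cause of the reversals was not tested.

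The labels do not say whether same-numbered mice were paired. Same-numbered deviations from the group means correlated at -0.0389, 0.137 and 0.0182, and different-numbered ones at -0.0967 to 0.109. With 3 mice per group these values cannot decide it. With the replicate block, all genes called numbered 729 and Srebf1 had a log2 fold change of 1.13 (edgeR adjusted p = 0.0757). The lowest count of any of the 10 genes in a library was 544, so counting error was small beside the spread between mice.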
